A study of Mus musculus with 8 samples.

Results

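The genes described here were 7 that are known for regulatory T cells (Tregs) or for the anti-inflammatory cytokine these cells can secrete: Foxp3, Il2ra, Ikzf2, Tnfrsf18, Tnfrsf4, Icos and Il10. They were chosen by name from the 32285 genes of the count table, and all 7 were in it. Their level was taken as unique molecular identifiers (UMIs, each standing for 1 captured RNA molecule) per 1000000 UMIs of a cell type in a graft (CPM). The cells were CD45+ cells, that is leukocytes, isolated from subcutaneous grafts of NIT-1 cells and profiled by droplet single-cell RNA sequencing. NIT-1 is an insulin-producing beta cell line that originates from the autoimmune-prone NOD mouse. Grafts were either wild type (WT) or Rnls mutant, so that the genotype is that of the grafted beta cells and not of the immune cells. All hosts were NOD.scid mice, which lack T and B cells of their own and keep innate immune cells, and all received splenocytes of recently diabetic NOD mice. The T cells of the grafts therefore came from the transferred splenocytes. Grafts were taken 10 or 17 days after the transfer, which gave 4 groups (WT day 10, Rnls mutant day 10, WT day 17 and Rnls mutant day 17) of 4 grafts each, told apart by hashtag antibodies within 1 library for each group. Hosts carried WT and Rnls mutant cells on opposite flanks, so grafts of both genotypes shared mice, but the labels do not say which hashtags mark the same mouse, and the genotype tests treated grafts as independent. Because each library held 1 genotype at 1 day, neither genotype nor day can be told apart from the library. Ages of the mice were not given in the labels.

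Tregs restrain other immune cells and are held to be a brake on the autoimmune attack on beta cells. Foxp3 encodes the transcription factor that defines the lineage, and Ikzf2 encodes Helios, a transcription factor abundant in many Tregs. Il2ra encodes the alpha chain (CD25) of the high-affinity receptor for interleukin-2, the growth factor on which Tregs depend and which they take mostly from conventional T cells. Tnfrsf18 (GITR) and Tnfrsf4 (OX40) encode costimulatory receptors of the tumor necrosis factor receptor family, and Icos encodes a costimulatory receptor of the CD28 family. These receptors are also induced on activated conventional T cells. Il10 encodes interleukin-10, which dampens antigen-presenting cells and is made by macrophages as well as by T cells.

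In the mouse genome (GRCm38.p6, the patch release of the mm10 assembly named for these data) the genes lie on 4 chromosomes. Foxp3 spans chrX:7579676-7595243 and Il2ra spans chr2:11642792-11693194. Chromosome 1 carries Icos at chr1:60960773-61000322, Ikzf2 at chr1:69531207-69687351 and Il10 at chr1:131019845-131024970. Tnfrsf4 at chr4:156013595-156016613 and Tnfrsf18 at chr4:156026322-156028894 are neighbours, with 9708 bases between the end of the former and the start of the latter. Both were lower at day 17 than at day 10 in Tregs and in CD4 T cells, as described further on, and Foxp3 was the gene most restricted to a single cell type. For these reasons bases upstream of the annotated start of each of the 3 genes are shown, taken on the plus strand from the RefSeq promoter windows for this build, which held rows for 4 of the 7 genes. The Tnfrsf4 run reaches the start given above. The Tnfrsf18 and Foxp3 runs stop short of it, where another annotation begins an exon. Capitals mark the letters GGAAAA of the NFAT motif, read on the opposite strand. The first run covers chr4:156013445-156013594, the second chr4:156026072-156026163 and the third chrX:7579426-7579566.
Tnfrsf4: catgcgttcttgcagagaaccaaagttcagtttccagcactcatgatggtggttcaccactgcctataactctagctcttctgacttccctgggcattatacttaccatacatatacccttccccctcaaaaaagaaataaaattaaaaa
Tnfrsf18: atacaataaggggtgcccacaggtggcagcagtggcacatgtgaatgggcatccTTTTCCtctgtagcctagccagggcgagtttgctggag
Foxp3: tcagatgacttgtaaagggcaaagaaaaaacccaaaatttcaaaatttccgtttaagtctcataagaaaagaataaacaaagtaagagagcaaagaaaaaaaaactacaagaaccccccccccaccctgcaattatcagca

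The Foxp3 stretch lies downstream of an earlier exon that another annotation gives to the same gene. GC content was 40.7% in the Tnfrsf4 run, 55.4% in the Tnfrsf18 run and 35.5% in the Foxp3 run. The 5 motifs searched on both strands of the whole 300-base windows were AP-1 (TGANTCA), STAT (TTCNNNGAA), RUNX (TGTGGT), NFAT (GGAAAA) and the TATA box (TATAAA). Tnfrsf18 held 1 NFAT match, 196 bases before its start, and 1 STAT match outside the printed bases. Foxp3 held 1 TATA box match outside the printed bases, and Tnfrsf4 and Il2ra held no match. Of 32851 promoter windows of this length, 23.4% held the NFAT letters, 8.30% the STAT letters, 13.6% the TATA box, 7.81% the AP-1 letters and 16.8% the RUNX letters. The neighbours Tnfrsf4 and Tnfrsf18 thus shared none of the 5 motifs in these windows.

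In all, 22441 cells were analysed, with 1742746 to 9729233 UMIs per graft and a median of 3520 UMIs per cell. Cells of WT day 17 grafts held more UMIs (median 5902 per cell) than those of the other groups (3083 to 3453.5). The deposited annotation named 505 cells of a single cluster as Tregs, between 6 and 82 per graft. WT day 17 replicate 2 (6 Tregs) and Rnls mutant day 17 replicate 4 (8 Tregs) fell under the minimum of 10 cells, so that Treg tests compared 4, 4, 3 and 3 grafts. Of the cell barcodes, 42 occurred in more than 1 library, 2 Tregs among them.

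The Treg label was borne out by its markers. Besides Foxp3, Ctla4, an inhibitory receptor of Tregs, was found in 88.7% of the cells and the T cell receptor component Cd3e in 92.9%. Cd4 was found in 32.9% and Cd8a in 2.2%, while the natural killer (NK) markers Ncr1 and Klrb1c and the beta cell genes Ins1, Ins2 and Iapp had no UMI. Macrophage RNA was present at a low level, with the abundant macrophage lysozyme gene Lyz2 at 218 CPM and Adgre1 at 1.4. A second annotated class matters for the Foxp3 results. The cells named Stem-Progenitor held Trac, the T cell receptor alpha constant gene, in 74.7% of cells, and its cluster of 653 cells carried Cd3e at 647 CPM against 0.779 in its cluster of 177 cells, so most of these cells carried T cell RNA and the class is called here by its deposited name only.

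Foxp3 was found almost only in the annotated Tregs, whereas the other Treg genes were shared with effector T cells and innate lymphocytes. Since the annotation was built from clusters of the same genes, levels by cell type are a description and were not tested. Foxp3 averaged 302 ± 62.3 CPM in Tregs (SD, n = 14 grafts, 162 to 400). It averaged 4.57 ± 7.00 in Stem-Progenitor cells (n = 12) and 0.776 ± 0.933 in CD4 T cells (n = 16), and at most 0.368 in any other class. Of all 520 Foxp3 UMIs, 442 (85.0%) lay in Tregs, which were 2.25% of the cells, and 42 in Stem-Progenitor cells.

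Ikzf2 and the costimulatory receptors followed Foxp3 in being highest in Tregs, though with a less steep drop. Ikzf2 reached 2487 ± 844 CPM in Tregs, followed at a distance by type 1 innate lymphoid cells (ILC-1, 276 ± 153, n = 8) and NK cells (148 ± 67.1), with CD4 T cells at 80.1 ± 57.8 and CD8 T cells at 75.3 ± 60.8. The ranges of the CD4 and CD8 T cells overlapped, and their SDs exceeded their difference. Tnfrsf18 stood at 1108 ± 261 in Tregs and between 235 ± 46.0 in CD8 T cells and 387 ± 134 in ILC-1, neighbours whose levels differed by less than their spread from CD4 T cells (317 ± 72.3) and NK cells (280 ± 53.9).

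Tnfrsf4 marked Tregs and CD4 T cells together, whereas Icos was shared by Tregs, CD4 and CD8 T cells. Tnfrsf4 was 1709 ± 362 CPM in Tregs and 634 ± 147 in CD4 T cells, but only 75.2 ± 53.4 in CD8 T cells and 2.76 in NK cells. Icos was 2307 ± 362 in Tregs, 1208 ± 295 in CD4 T cells, 936 ± 160 in CD8 T cells and 69.3 ± 40.5 in NK cells. CD4 T cells were far more numerous than Tregs, and 62.9% of all 16643 Tnfrsf4 UMIs and 52.2% of all 35862 Icos UMIs lay in CD4 T cells, against 15.3% and 9.20% in Tregs. CD8 T cells held 3.61% of the Tnfrsf4 UMIs and 25.3% of the Icos UMIs.

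Il2ra distinguished Tregs least among the lymphoid genes. Its level was 592 ± 279 in Tregs and 507 ± 345 in ILC-1, a difference smaller than either SD, and 206 ± 74.2 in CD4 T cells, 185 ± 71.5 in CD8 T cells and 183 ± 92.3 in NK cells, 3 types that were not separated beyond their spread. Only 9.28% of the 9170 Il2ra UMIs lay in Tregs. In macrophages, all 6 of these genes were near the detection limit, from 0.206 ± 0.353 CPM for Foxp3 to 4.10 ± 2.16 for Ikzf2.

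**Figure D1:**
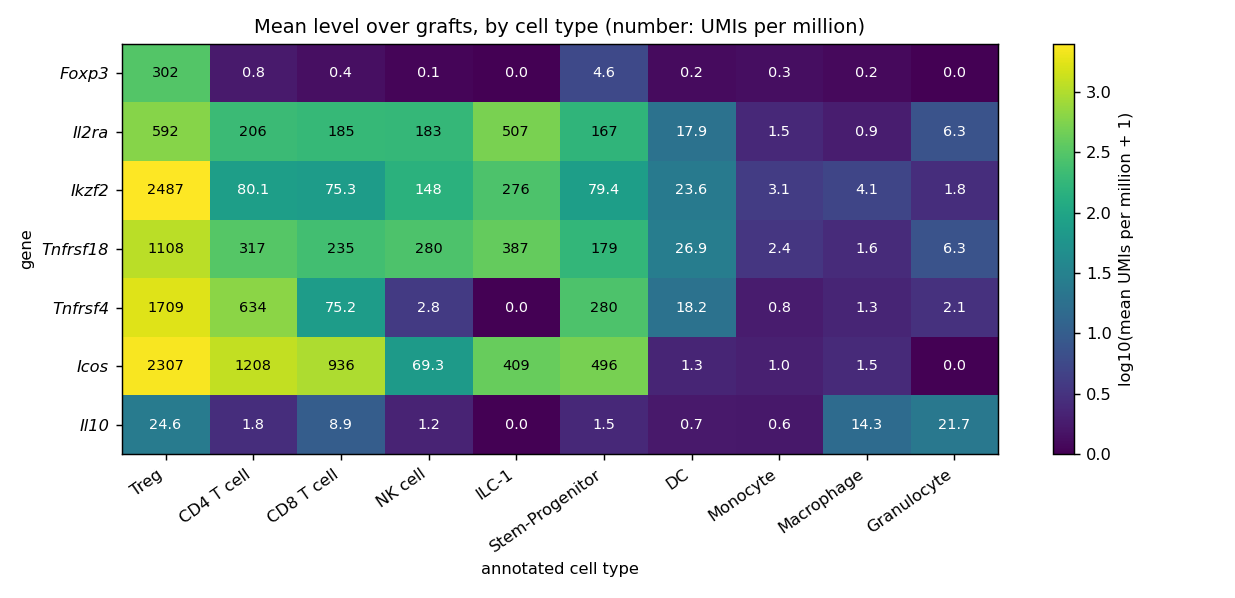
Level of the 7 genes in each annotated cell type, in CPM on a log scale, with points for single grafts holding at least 10 cells of the type and bars for the mean. Foxp3 is highest in the Treg column at 162 to 400. Of the receptors, Tnfrsf4 extends to CD4 T cells and Icos to CD4 and CD8 T cells. Il10 is low everywhere and highest in Tregs, granulocytes and macrophages with wide scatter.

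At the level of single cells, a Foxp3 UMI was found in 257 of 505 Tregs (50.9%, exact 95% interval 46.4 to 55.3%, which covers counting error only). The share was 51.0% at day 10 and 50.6% at day 17. When every cell was thinned to 1000 UMIs the share was 25.7%, so detection depended on depth. In CD4 T cells, at a median depth of 2823.5 UMIs against 2444 in Tregs, the share was 0.267%, or 13 of 4876 cells, and in macrophages, which should lack the gene, it was 0.125%, or 9 of 7179.

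Tregs without a Foxp3 UMI resembled those with one in most of the other genes. Pooled over the cells, Ikzf2 stood at 2319 CPM in the 257 cells with a Foxp3 UMI and at 2312 in the 248 without, Tnfrsf18 at 1147 and 1169, Tnfrsf4 at 1769 and 1731, and Icos at 2179 and 2378. Apart from Il10, Il2ra was the gene that differed most, at 703 with and 428 without a Foxp3 UMI. Il10 was at 14.5 with and 31.8 without, found in 11 and 10 cells. Median depths were 2619 and 2234 UMIs. These are values over cells and were not tested.

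Among the Stem-Progenitor cells, 21 of 830 (2.53%) held a Foxp3 UMI, at a median depth of 9652 UMIs, and 0.361% after thinning. All 21 also held UMIs of Il2ra and Tnfrsf18, and 19 held Ikzf2 and 19 Tnfrsf4 (90.5% each, against 24.4% and 47.2% of the cells of that class without a Foxp3 UMI). These 21 cells held more UMIs, with a median of 15743 against 9548. The level of Ikzf2 was 699 CPM in them against 69.7 in the others, and that of Tnfrsf4 was 1206 against 254. Of the 21 cells, 19 lay in the cluster of 653 cells, where Tnfrsf4 was 397 CPM, against 1.56 in the cluster of 177 cells. The others thus include cells with little T cell RNA, which lowers their Tnfrsf4. Foxp3 UMIs together with other Treg genes were thus also found outside the annotated Treg cluster. Whether some of these cells were doublets (cells sharing a barcode) was not tested.

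Whether the graft genotype changed the Treg genes was asked in Tregs first. None of the 6 genes that passed the filter on low counts (Il10 did not) differed between Tregs of Rnls mutant and WT grafts at either day, by the quasi-likelihood test of edgeR, adjusted after Benjamini and Hochberg across the 2331 genes tested, in which 0.0858% of genes were called at day 10 and 0.0429% at day 17. DESeq2 also called 0 of them. At an unadjusted p under 0.05 the edgeR counts were 0 at day 10 and 2 at day 17.

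Foxp3 itself was level across the groups. In CPM, Tregs of the 4 WT day 10 grafts held 319, 296, 331 and 290, and those of the Rnls mutant day 10 grafts held 398, 325, 258 and 224. The WT day 17 grafts held 162, 400 and 296 (234 in the replicate with 6 cells) and the Rnls mutant day 17 grafts 277, 333 and 326 (227 in the replicate with 8 cells). All groups overlapped, with means of 309 ± 18.9, 301 ± 76.7, 286 ± 120 and 312 ± 30.3. The log2 fold change of mutant over WT was -0.07 (SE 0.22, edgeR adjusted p 0.967) at day 10 and 0.01 (SE 0.29, adjusted p 0.998) at day 17.

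Il2ra varied most among replicates. It was 392, 543, 340 and 581 CPM in WT day 10 Tregs and 398, 1220, 577 and 583 in Rnls mutant day 10 Tregs, then 347, 1185 and 493 in WT day 17 and 555, 392 and 692 in Rnls mutant day 17 Tregs. A single graft in each of 2 groups, Rnls mutant day 10 replicate 2 and WT day 17 replicate 3, stood far above its fellows. The log2 fold change of mutant over WT was 0.53 (SE 0.30, edgeR adjusted p 0.602) at day 10 and -0.39 (SE 0.36, adjusted p 0.795) at day 17, and the latter became 0.44 without WT day 17 replicate 3.

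Tnfrsf18 and Tnfrsf4 came closest to a genotype difference, and at day 17 only in the unadjusted p. Tnfrsf18 was 809, 1193 and 1163 CPM in the 3 WT day 17 grafts and 739, 784 and 783 in the 3 Rnls mutant day 17 grafts. The mutant grafts thus lay below all others with at least 10 Tregs, of which the lowest was WT day 17 replicate 1. On the log2 scale mutant over WT was -0.47 (SE 0.19, unadjusted p 0.0193, edgeR adjusted p 0.392). At day 10 the order was the opposite, with 1317, 888, 1054 and 1278 in WT and 1360, 1497, 1377 and 1267 in Rnls mutant grafts and a log2 fold change of 0.26 (SE 0.14, adjusted p 0.597).

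Tnfrsf4 was 1155, 2011 and 2246 CPM in WT day 17 and 1282, 1058 and 1323 in Rnls mutant day 17 Tregs, groups that overlapped through WT replicate 1. Its log2 fold change was -0.56 (SE 0.18, unadjusted p 0.00394, edgeR adjusted p 0.214). It became -0.76 (adjusted p 0.0244) when WT day 17 replicate 1 was left out, so that this call rested on leaving out 1 graft, and -0.25 (adjusted p 0.798) with hashtag number as a block within each day. At day 10 Tnfrsf4 was 1666, 1862, 1787 and 1873 in WT and 1999, 1871, 2006 and 1782 in Rnls mutant Tregs, with a log2 fold change of 0.09 (SE 0.14, adjusted p 0.902).

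The difference of the genotype effect between the days was tested directly and was called for 0 of the 6 genes by edgeR, with 1.03% of all genes called, and for 0 by DESeq2, while 3 passed an unadjusted p under 0.05 in edgeR. It was -0.73 (SE 0.24, adjusted p 0.147) for Tnfrsf18, -0.65 (SE 0.23, adjusted p 0.179) for Tnfrsf4 and 0.45 (SE 0.21, adjusted p 0.383) for Ikzf2 on the log2 scale. Without WT day 17 replicate 1 the value for Tnfrsf4 became -0.85 (adjusted p 0.0273).

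**Figure D2:**
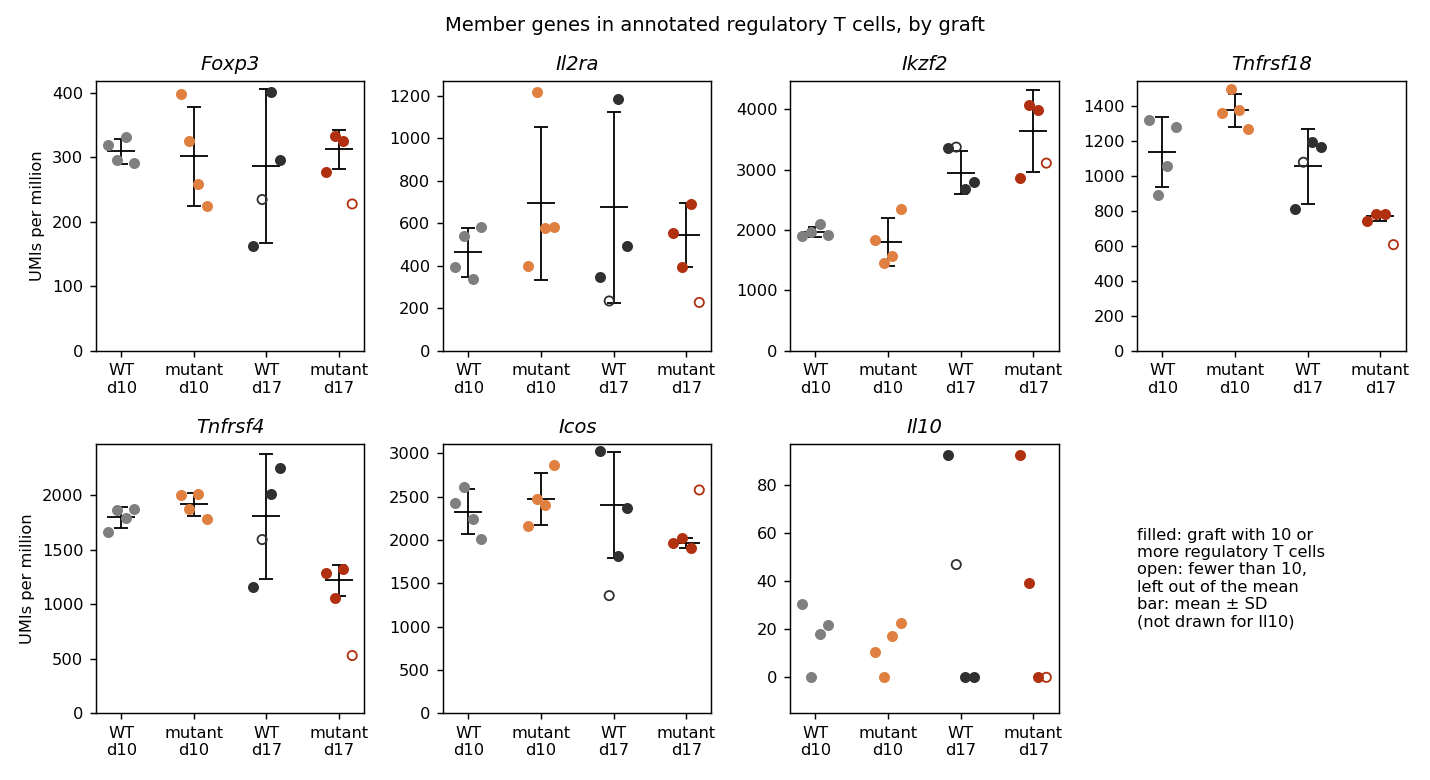
Level of the 7 genes in Tregs of each graft, in CPM, by group; open points are the 2 grafts with fewer than 10 Tregs, and bars show the mean and SD of the other grafts except for Il10. Ikzf2 is higher in every day 17 graft than in any day 10 graft, and Tnfrsf18 is lowest in the Rnls mutant day 17 grafts (739 to 784).

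Tregs did change between day 10 and day 17. Ikzf2 rose, Tnfrsf18 and Tnfrsf4 fell, and the remaining 3 genes were not called. These 3 of 6 tested genes stand beside 15.4% of all genes called by the same edgeR test, 7.42% higher and 7.94% lower. Without the scaling factors of the trimmed mean of M values (TMM) the calls over all genes split into 233 higher and 139 lower instead of 173 and 185.

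Ikzf2 was 1899, 1960, 2091 and 1917 CPM in WT day 10 and 1842, 1448, 1567 and 2343 in Rnls mutant day 10 Tregs. At day 17 it was 3350, 2686 and 2798 in WT and 2854, 4076 and 3988 in Rnls mutant Tregs. No day 10 graft reached a day 17 graft, including the 2 grafts with few Tregs, which held 3373 and 3107. The mean went from 1883 ± 281 (n = 8) to 3292 ± 617 (n = 6), with a log2 fold change of 0.73 (SE 0.10, edgeR adjusted p 2.42e-05). Within genotypes, where 8.54% of all genes were called in WT and 7.29% in Rnls mutant grafts, the log2 fold change was 0.50 (adjusted p 0.0313) in WT and 0.95 (adjusted p 0.000112) in Rnls mutant grafts, and the difference between them is the value of 0.45 given above, which was not called.

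Tnfrsf18 went from 1255 ± 194 CPM at day 10 to 912 ± 207 at day 17, a log2 fold change of -0.53 (SE 0.12, edgeR adjusted p 0.00308). The groups overlapped through the WT grafts. Within genotypes the change was -0.17 (adjusted p 0.589) in WT and -0.90 (adjusted p 0.00198) in Rnls mutant grafts, while the difference between them was not called.

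Tnfrsf4, its neighbour on chromosome 4, went from 1856 ± 113 to 1513 ± 492, a log2 fold change of -0.37 (SE 0.11, edgeR adjusted p 0.0271), with -0.04 (adjusted p 0.900) in WT and -0.70 (adjusted p 0.00887) in Rnls mutant grafts. This call was not stable. It was lost with DESeq2 (adjusted p 0.0567), without TMM factors (adjusted p 0.0631), and without Rnls mutant day 10 replicate 3 (adjusted p 0.0576), Rnls mutant day 17 replicate 2 (adjusted p 0.0746) or WT day 17 replicate 1 (adjusted p 0.0707).

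Foxp3 was 305 ± 51.9 at day 10 and 299 ± 79.4 at day 17, with a log2 fold change of -0.03 (SE 0.18, edgeR adjusted p 0.923). Il2ra had a log2 fold change of 0.15 (SE 0.23, adjusted p 0.701) and Icos of -0.22 (SE 0.11, adjusted p 0.156). Icos was 2432, 2614, 2243 and 2011 CPM in WT day 10, 2156, 2473, 2398 and 2870 in Rnls mutant day 10, 3026, 1810 and 2365 in WT day 17 and 1964, 2018 and 1913 in Rnls mutant day 17 Tregs. Icos in the Rnls mutant day 17 grafts was thus even among replicates and below each graft of its day 10 counterpart, and its log2 fold change within mutant grafts was -0.39 (adjusted p 0.116).

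**Figure D3:**
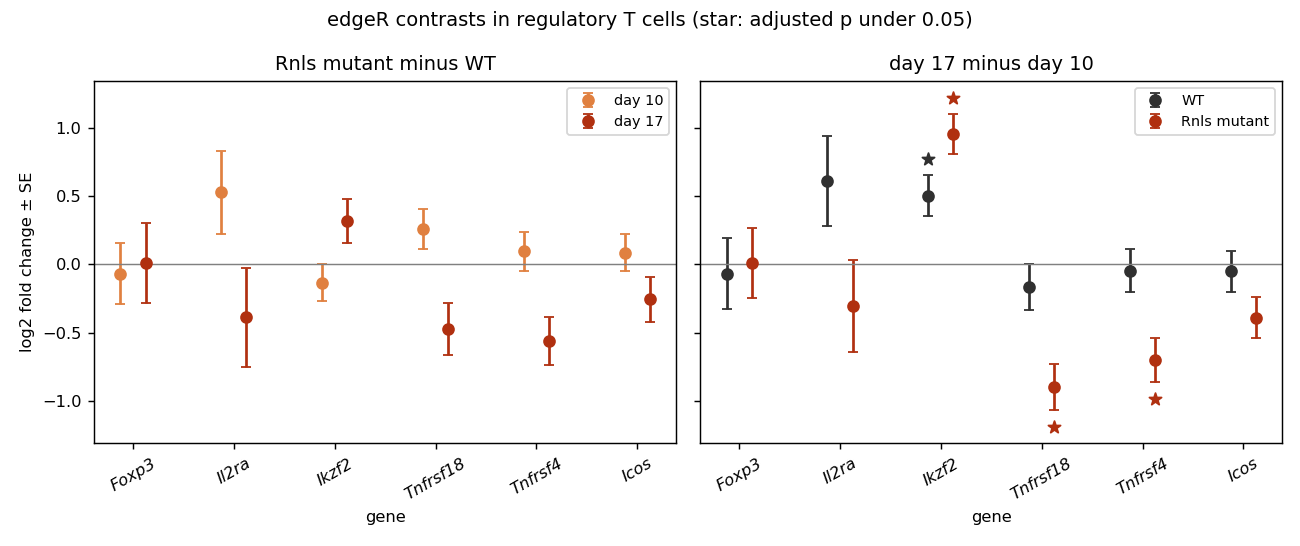
Log2 fold changes of the 6 tested genes in Tregs for mutant over WT at each day and for day 17 over day 10, with bars of 1 standard error. Ikzf2 at 0.73 and Tnfrsf18 at -0.53 stand furthest from 0 in the day comparison, and the genotype values lie on opposite sides of 0 at the 2 days for Tnfrsf18 (0.26 and -0.47).

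Macrophage RNA moved with these changes. The sum of Adgre1, C1qa, Csf1r and Lyz2 in Tregs was 170 ± 34.0 CPM in WT day 10, 81.3 ± 19.0 in Rnls mutant day 10, 238 ± 163 in WT day 17 and 729 ± 197 in Rnls mutant day 17 grafts, the last at 608 to 956. The 4 dendritic cell markers summed to 184, 154, 180 and 269 in the same order, and the 3 beta cell genes to 0 throughout. Tregs of WT day 17 grafts also held more UMIs per cell (median 3630.5 against 2036 to 2579). Macrophages themselves averaged 4.10 ± 2.16 CPM of Ikzf2 (highest graft 8.53), 1.60 of Tnfrsf18 (highest 3.47) and 1.25 of Tnfrsf4 (highest 2.62). The part of the macrophage RNA in the result was not tested.

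CD4 T cells were the largest source of Icos and Tnfrsf4, and here Icos rose while Tnfrsf18 and Tnfrsf4 fell from day 10 to day 17. These were 3 of the 5 genes tested, beside 36.6% of all 7858 genes called by the same edgeR test (18.8% higher and 17.7% lower). Foxp3 and Il10 did not pass the filter. Without TMM factors the calls over all genes moved from 1480 higher and 1394 lower to 2114 and 869, with the median of all genes at 0.14 on the log2 scale.

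Icos in CD4 T cells was 840 to 1162 CPM at day 10 (median 1054, n = 8) and 1129 to 2018 at day 17 (median 1290, n = 8). The groups overlapped only narrowly. The log2 fold change was 0.32 (SE 0.10, edgeR adjusted p 0.0156), and 0.23 (adjusted p 0.0597) without WT day 17 replicate 1, the graft at 2018. Within genotypes alone it was 0.36 (adjusted p 0.0720) in WT and 0.27 (adjusted p 0.172) in Rnls mutant grafts.

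Tnfrsf18 was 284 to 392 at day 10 (median 348) and 172 to 466 at day 17 (median 289), with a log2 fold change of -0.34 (SE 0.13, edgeR adjusted p 0.0407). Tnfrsf4 was 568 to 759 (median 705) and 367 to 910 (median 556), also with -0.34 (SE 0.13, adjusted p 0.0450). The day 17 grafts spread to both sides of the day 10 grafts in both genes. Both calls were lost without TMM factors (Tnfrsf18 -0.21, adjusted p 0.211, Tnfrsf4 adjusted p 0.205), and Tnfrsf4 also with DESeq2 (adjusted p 0.0668). Tnfrsf18 stayed called only without Rnls mutant day 10 replicate 1 or 2, Rnls mutant day 17 replicate 3, WT day 10 replicate 2 or WT day 17 replicate 3, and was lost without any of the other 11 grafts (adjusted p up to 0.101). Tnfrsf4 stayed called only without Rnls mutant day 10 replicate 1 or 3, Rnls mutant day 17 replicate 3 or WT day 17 replicate 3 or 4, and was lost without any of the other 11 (adjusted p up to 0.116).

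Il2ra and Ikzf2 in CD4 T cells were not called by day. Il2ra was 204 ± 32.8 at day 10 and 208 ± 104 at day 17, with a log2 fold change of -0.09 (edgeR adjusted p 0.770), and Ikzf2 had -0.48 (adjusted p 0.307). Foxp3 was at 0 in all 4 WT day 17 and 3 of 4 Rnls mutant day 17 grafts, with 15 UMIs over all day 10 and 2 over all day 17 CD4 T cells, too few for a comparison.

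The make-up of the CD4 T cells changed between the days in the deposited clusters. Cluster 0 held 59.6 ± 8.35% of CD4 T cells at day 10 and 8.84 ± 5.99% at day 17 (n = 8 each), and cluster 8 held 5.60 ± 4.32% and 69.7 ± 7.66%. Pooled over both days, cluster 8 was the highest in Icos, at 1700 CPM against 1040 in cluster 0 and 897 in cluster 7. Cluster 0 was the highest in Tnfrsf4, at 817 against 581 in cluster 8 and 453 in cluster 7, and in Tnfrsf18, at 364 against 288 and 309.

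Within single clusters the day comparison gave different values in cluster 8 and cluster 7, a difference that was not tested. In cluster 8 alone the log2 fold changes of all 3 genes lay close to 0. Icos was 1579 ± 330 at day 10 (n = 7 grafts) and 1554 ± 324 at day 17 (n = 8), a log2 fold change of -0.01 (edgeR adjusted p 0.988), Tnfrsf18 also had -0.01 (adjusted p 0.995) and Tnfrsf4 had 0.0028. In cluster 7 alone Tnfrsf4 fell from 500 ± 69.4 CPM at day 10 (n = 8 grafts) to 304 ± 82.9 at day 17 (n = 5). The 5 day 17 grafts were split over both genotypes, so few grafts stood behind at least 1 of them. The log2 fold change of Tnfrsf4 was -1.09 (edgeR adjusted p 8.09e-07), while Icos had 0.14 (adjusted p 0.475) and Tnfrsf18 -0.47 (adjusted p 0.0671). These fits were added after the values had been seen. In cluster 0, which was not fitted by day, Icos was 1036 ± 102 CPM at day 10 (n = 8 grafts) and 835 ± 120 at day 17 (n = 4). There Tnfrsf4 was 802 ± 76.4 and 892 ± 138, and Tnfrsf18 was 359 ± 36.4 and 455 ± 194. In this cluster the means of all 3 genes moved opposite to those of CD4 T cells as a whole, which was not tested. The 4 macrophage markers in CD4 T cells summed to 116 ± 44.1 CPM at day 10 and 483 ± 282 at day 17, and their part in the result was not tested.

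**Figure D4:**
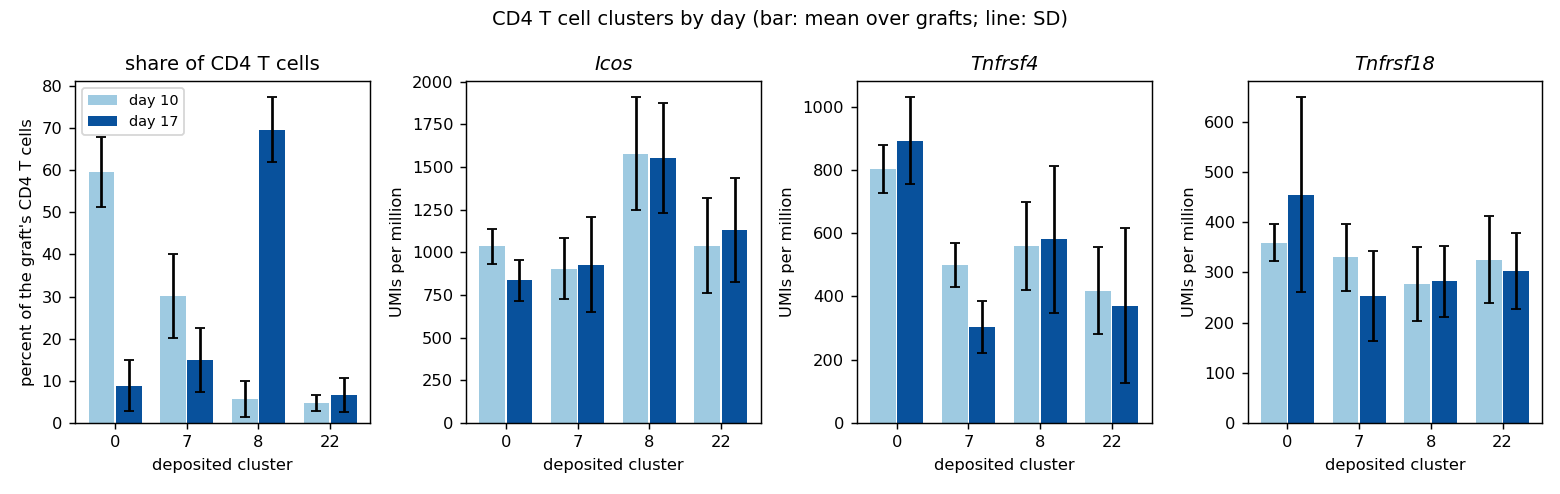
Share of CD4 T cells in each deposited cluster at day 10 and day 17 (percent of CD4 T cells per graft) beside the level of Icos, Tnfrsf4 and Tnfrsf18 in each cluster (CPM). Cluster 8 goes from 5.60% to 69.7% of the cells and holds the highest Icos, while cluster 0 goes from 59.6% to 8.84% and holds the highest Tnfrsf4 and Tnfrsf18.

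Genotype had no called effect on these genes in CD4 T cells. edgeR called 0 of 5 at day 10 and at day 17, where 0.229% and 0.433% of all genes were called, 0 for the mean of both days (0.0127% of all genes) and 0 for the difference between days (0.636%), and DESeq2 also called 0. At an unadjusted p under 0.05 the edgeR counts were 0, 0, 2 and 0.

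In CD8 T cells, Tnfrsf18 fell and the other 4 tested genes were not called by day, beside 21.4% of all 6379 genes called, 10.6% higher and 10.7% lower. Tnfrsf18 was 168 to 314 CPM at day 10 (median 270, n = 8) and 160 to 260 at day 17 (median 214, n = 8), groups that largely overlapped. Day 17 over day 10 gave a log2 fold change of -0.38 (SE 0.12, edgeR adjusted p 0.0263). Within genotypes it was -0.63 (edgeR adjusted p 0.0211) in WT and -0.14 (adjusted p 0.676) in Rnls mutant grafts. The difference between them was not called (0.49, adjusted p 0.532). The call over both genotypes was lost without Rnls mutant day 10 replicate 4 (adjusted p 0.0558) and without Rnls mutant day 17 replicate 1 (adjusted p 0.0520). It was also lost without TMM factors (-0.27, adjusted p 0.109). In that setting the split of all calls went from 678 higher and 684 lower to 1005 and 398, and the median of all genes stood at 0.12. Icos, at 933 ± 78.1 and 940 ± 220, had a log2 fold change of -0.09.

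For genotype, edgeR and DESeq2 called 0 of the 5 genes in CD8 T cells at either day, with 0.314% and 0.376% of all genes called by edgeR, and 0 and 1 of the 5 passed an unadjusted p under 0.05. The 1 was Il2ra at day 17. It was 124, 60.03, 269 and 79.9 CPM in WT and 235, 178, 197 and 310 in Rnls mutant CD8 T cells, groups that overlapped through WT replicate 3, with a log2 fold change of 0.88 (unadjusted p 0.0275, edgeR adjusted p 0.497). The difference of this effect from that at day 10 was 1.15 (adjusted p 0.370), beside 0.643% of all genes called for that difference.

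In NK cells 4 of the genes were tested, and Icos fell from day 10 to day 17, beside 12.9% of 3263 genes called, 6.34% higher and 6.56% lower. Icos was 49.3 to 144 CPM at day 10 (median 87.4, n = 8) and 12.4 to 85.5 at day 17 (median 39.1, n = 8), from 279 and 54 UMIs in all. This gave a log2 fold change of -1.03 (SE 0.33, edgeR adjusted p 0.0393). The call was lost without TMM factors (adjusted p 0.0516), without the cells of highest doublet score (adjusted p 0.0905) and without Rnls mutant day 10 replicate 3 or 4, Rnls mutant day 17 replicate 1, 3 or 4, WT day 10 replicate 3 or 4, or WT day 17 replicate 2 (adjusted p up to 0.110). Tnfrsf18 (-0.39, adjusted p 0.0608), Ikzf2 (-0.81, adjusted p 0.0804) and Il2ra (0.20) were not called. The 4 macrophage markers in NK cells summed to 160 ± 81.2 CPM at day 10 and 437 ± 233 at day 17, and their part in the result was not tested. Without TMM factors the split of all calls moved from 207 higher and 214 lower to 285 and 162. Genotype calls were 0 of 4 in edgeR and DESeq2, beside 0.0306% and 0.184% of all genes called by edgeR at the 2 days and 0.398% for the difference between them, and 0 of 4 passed an unadjusted p under 0.05.

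Dendritic cells (DCs), the cells that present antigen to T cells, carried low levels of 3 of the receptors, and Il2ra and Tnfrsf4 fell with time. These were 2 of 4 genes tested, beside 27.1% of 5700 genes called, 13.7% lower. Il2ra was 6.03 to 67.7 CPM at day 10 (median 24.4, n = 8, 144 UMIs) and 0 to 18.5 at day 17 (median 2.24, n = 8, 17 UMIs), with a log2 fold change of -2.37 (SE 0.64, edgeR adjusted p 0.00944). Within genotypes it was -3.32 in WT (adjusted p 0.0437) and -1.43 in Rnls mutant grafts (adjusted p 0.208). Tnfrsf4 was 1.51 to 88.5 at day 10 (median 21.98, 138 UMIs) and 0 to 25.3 at day 17 (median 3.43, 14 UMIs), with -2.20 (SE 0.76, adjusted p 0.0388), and -2.04 in WT (adjusted p 0.247) and -2.36 in Rnls mutant grafts alone (adjusted p 0.150). The call of Tnfrsf4 held only without Rnls mutant day 10 replicate 2 or 3, Rnls mutant day 17 replicate 1, WT day 10 replicate 4 or WT day 17 replicate 2 or 4, and was lost without any of the other 10 grafts (adjusted p up to 0.0946).

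These UMIs came mostly from cluster 21 (240 cells), whose level of Ccr7, the chemokine receptor of migratory DCs, was 2332 CPM against 37 to 270 in the other DC clusters. Pooled over its cells, Il2ra was 108, Tnfrsf4 113 and Tnfrsf18 80.6 CPM, while the other DC clusters held at most 6.51 of Il2ra and 1.93 of Tnfrsf4. The T cell gene Cd3e was at 0.775 in cluster 21. The cluster made up 27.7 ± 13.3% of DCs at day 10 and 13.2 ± 9.72% at day 17. Pooled over its cells, Il2ra was 117 and 68.5 and Tnfrsf4 123 and 63.9 at the 2 days. These day 17 values rest on 30 cells with 15 UMIs of Il2ra and 14 of Tnfrsf4. No day 17 graft reached the minimum of 10 cells in this cluster, so the level within it could not be compared between grafts. Without cluster 21 the genes did not pass the filter. Ikzf2 had another place, with its highest DC level of 41.5 in cluster 19, which carried the chemokine receptor gene Xcr1 of cross-presenting DCs at 251. Genotype calls were 0 of 4 in edgeR, beside 0.0175% of all genes at each day and 0.0351% for the difference between days, 0 in DESeq2 and 0 at an unadjusted p under 0.05. In monocytes and granulocytes, the other myeloid types, none of the 7 genes had enough UMIs to be tested.

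Il10 was sparse, with 657 UMIs in 407 cells of the whole series, and most of it lay in macrophages. Macrophages held 482 of these UMIs (73.4%, against 32.0% of the cells), CD8 T cells 49, CD4 T cells 41 and Tregs 32. The mean CPM over grafts was 24.6 ± 31.4 in Tregs, 21.7 ± 31.6 in granulocytes, 14.3 ± 11.3 in macrophages, 8.92 ± 10.4 in CD8 T cells and 1.76 ± 2.93 in CD4 T cells. Neighbours in this order did not differ beyond their spread.

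In Tregs, the 32 Il10 UMIs lay in 21 of 505 cells, with up to 6 in a single cell, and 11 of these cells also held a Foxp3 UMI. The level was 31, 0, 18 and 22 CPM in WT day 10, 10, 0, 17 and 22 in Rnls mutant day 10, 92, 0 and 0 in WT day 17 and 92, 39 and 0 in Rnls mutant day 17 grafts, from 10, 7, 5 and 10 UMIs per group. With so few UMIs, a difference between groups was not detectable at this depth.

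In macrophages Il10 fell from day 10 to day 17, as did 25.3% of all 9331 genes tested, with 50.9% called in either direction. It was 16.5, 26.7, 12.3 and 10.6 CPM in WT day 10 and 18.7, 48.3, 3.49 and 6.15 in Rnls mutant day 10 grafts, against 15.1, 19.6, 6.26 and 4.41 in WT day 17 and 5.38, 6.67, 8.51 and 19.6 in Rnls mutant day 17 grafts. The ranges overlapped widely, with means of 17.8 ± 14.3 and 10.7 ± 6.41 (n = 8 each). The log2 fold change was -1.19 (SE 0.42, edgeR adjusted p 0.0255). The call was lost with DESeq2 (-0.96, adjusted p 0.0575) and without Rnls mutant day 10 replicate 2 (-0.73, adjusted p 0.127), Rnls mutant day 17 replicate 1 (adjusted p 0.0544) or 2 (adjusted p 0.0512), WT day 10 replicate 2 (adjusted p 0.0666) or WT day 17 replicate 3 (adjusted p 0.0554). Without TMM factors the split of all calls in macrophages moved from 2389 higher and 2363 lower to 3357 and 1626, with the median of all genes at 0.17.

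A single macrophage cluster carried much of this Il10. Cluster 13, with 551 cells, held 206 of the 482 macrophage UMIs. Pooled over both days it was at 55.5 CPM, while the clusters 2, 4, 5, 10 and 12 lay between 3.38 and 12.4. By day, cluster 13 was at 57.5 CPM at day 10 and 30.0 at day 17, the latter from 8 UMIs in 42 cells. Only 1 day 17 graft held at least 10 cells of this cluster, at 0 CPM. Cluster 13 made up 21.2 ± 11.6% of macrophages at day 10 and 2.17 ± 4.04% at day 17. With cluster 13 left out, a fit added after the values had been seen, the log2 fold change of Il10 was 0.30 (edgeR adjusted p 0.605). The cluster was chosen for its high Il10, and 509 of its 551 cells were from day 10. Leaving it out lowers the day 10 level in any case, so this fit cannot show where the change arose. For genotype the log2 fold change was 0.33 at day 10 and -0.17 at day 17. Neither edgeR, beside 0.0322% and 0% of all genes called, nor DESeq2 called it, and its unadjusted p was not under 0.05 in edgeR.

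In CD8 T cells Il10 took the opposite direction, from few UMIs. At day 10 it was 1.89, 0.879, 7.02 and 8.88 CPM in WT and 2.07, 0, 3.32 and 0.993 in Rnls mutant grafts, and at day 17 it was 18.6, 10.0, 41.3 and 9.99 in WT and 15.2, 10.7, 11.8 and 0 in Rnls mutant grafts. All day 17 grafts except Rnls mutant replicate 4 were above every day 10 graft. Depth differed, however, with 90328 to 327924 UMIs of all genes per graft at day 17 and 707672 to 1203374 at day 10. In WT day 17 replicate 4, with 100128 UMIs, a single Il10 UMI made up the 9.99 CPM. The mean of Il10 was 3.13 ± 3.17 at day 10 and 14.7 ± 12 at day 17 (n = 8 each, 25 and 24 UMIs), and a two-sided exact permutation test of day within genotype gave p = 0.00449 over 4900 assignments. This gene and test were picked after the values were seen and the p is therefore not independent of that choice. WT grafts alone gave an exact permutation p of 0.0286, the smallest that 4 against 4 allows, and Rnls mutant grafts alone 0.143.

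Few cells stood behind this result. Cluster 26, with 44 CD8 T cells, held 11 of the UMIs in 3 cells, and without it the exact permutation p was 0.0555 for a difference of 10.2 CPM. Cluster 9 held 23 of the UMIs, at 5.47 CPM at day 10 and 29.4 at day 17. With the cells of highest doublet score removed the difference was 11.6 and the exact permutation p 0.00571. The 4 macrophage markers in CD8 T cells summed to 133 ± 56.4 CPM at day 10 and 517 ± 284 at day 17, and their part in the result was not tested.

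**Figure D5:**
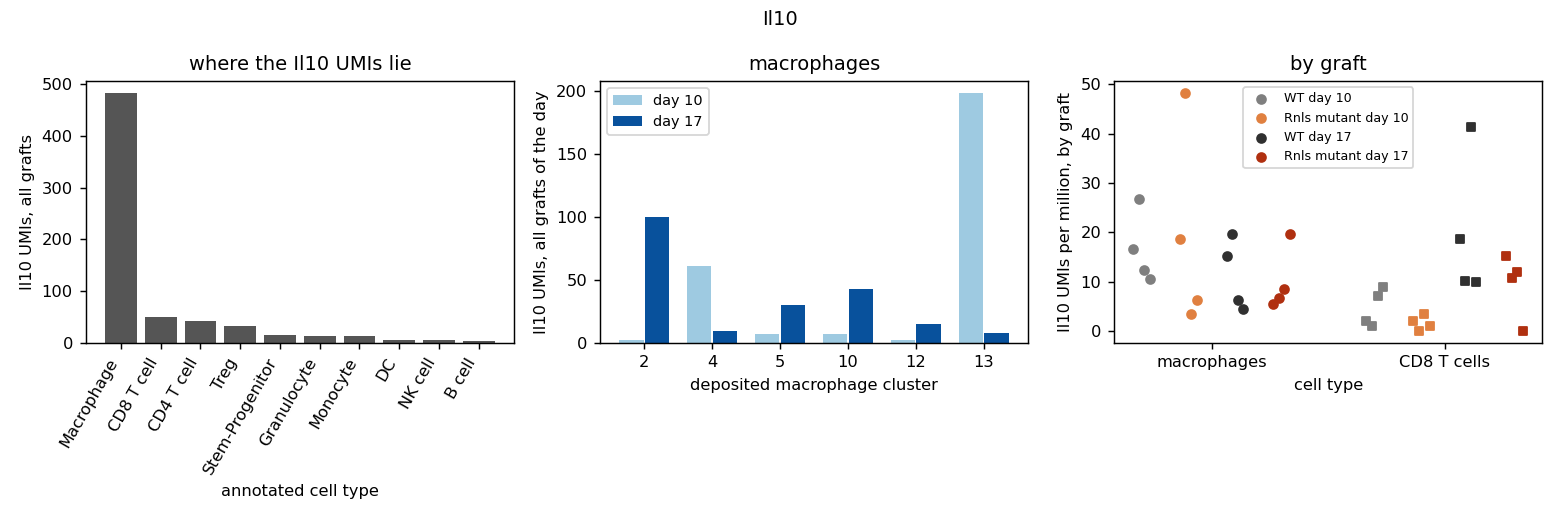
Il10 in CPM per graft by group in Tregs, macrophages, CD8 T cells and CD4 T cells. CD8 T cells of 7 of the 8 day 17 grafts, which held fewer UMIs in total, lie above all day 10 grafts (at most 8.88). Macrophages overlap between the days at 3.49 to 48.3.

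When the UMIs of all CD45+ cells of a graft were added up, as a bulk measurement would see them, all 7 genes were tested, and Il2ra, Tnfrsf18 and Tnfrsf4 fell from day 10 to day 17. Beside them, 57.6% of 12560 genes were called, 30.1% higher and 27.5% lower. In such sums fewer cells of a type and less RNA per cell cannot be told apart. Il2ra went from 110 to 56.3 CPM (log2 fold change -1.02, SE 0.22, edgeR adjusted p 0.000825), Tnfrsf18 from 161 to 75.9 (-1.16, SE 0.15, adjusted p 1.29e-05) and Tnfrsf4 from 204 to 103 (-1.08, SE 0.24, adjusted p 0.00122). Icos (405 and 287, -0.60, adjusted p 0.0601), Foxp3 (5.58 and 4.09, -0.45, adjusted p 0.227), Ikzf2 (-0.17) and Il10 (6.41 and 7.60, 0.12) were not called. The numbers of cells moved at the same time, with 2339 macrophages and 3491 CD4 T cells at day 10 and 4840 and 1385 at day 17, and their part in the result was not tested. Genotype calls were 0 of 7 by edgeR, beside 0.0796% and 0.0159% of all genes at the 2 days and 0.143% for the difference between them, 0 by DESeq2 and 0 at an unadjusted p under 0.05.

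The share of Tregs among CD45+ cells did not differ by genotype beyond the spread between grafts. It was 3.26, 1.47, 2.19 and 2.57% in WT day 10, 2.04, 1.39, 5.02 and 1.63% in Rnls mutant day 10, 1.60, 1.71, 1.89 and 4.25% in WT day 17 and 1.60, 1.29, 3.05 and 1.47% in Rnls mutant day 17 grafts. A single graft in each of 3 groups carried the highest share of its group by a wide margin. The difference of mutant from WT was 0.144 percentage points at day 10 (2.52 ± 1.69 against 2.38 ± 0.747, two-sided exact permutation p 0.914, n = 4 each) and -0.511 at day 17 (1.85 ± 0.806 against 2.36 ± 1.26, exact permutation p 0.486). With 4 against 4 grafts the smallest p is 0.0286.

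The ligands and receptor partners of the 7 genes were described in the same way. Il2, the cytokine bound by Il2ra, was found mostly in CD4 T cells, which held 796 of its 906 UMIs at 48.4 ± 37.9 CPM, while no other type exceeded 2.54. Its other receptor chains were widespread, with Il2rb highest in ILC-1 (714 ± 200) and NK cells (567 ± 124) and at 300 ± 88.4 in Tregs, and Il2rg at 563 ± 80.5 in Tregs. Of the interleukin-10 receptor chains, Il10ra was highest in myeloid types, at 152 ± 69.8 in monocytes, against 45.1 in ILC-1 and 38.2 in Tregs. Il10rb was less restricted. It was at 184 in granulocytes, 108 in macrophages and 97.2 in monocytes. DCs were at 42.7, beside 65.8 in ILC-1, 59.1 in NK cells and 41.5 in Tregs.

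The ligands of the costimulatory receptors were scarce. Tnfsf18, the ligand of GITR, had 22 UMIs in the whole series, 15 of them in macrophages. Tnfsf4, the ligand of OX40, was at 29.1 in ILC-1, 21.7 in NK cells, 18.7 in CD4 T cells and 12.3 in DCs, and Icosl, the ligand of ICOS, at 25.8 in granulocytes and 17.5 in DCs. Of these 8 partners, 2 were tested in Tregs (by day, Il2rb -0.05 and Il2rg -0.10 on the log2 scale) and 6 in CD4 T cells, and 0 were called by edgeR or DESeq2 for day or genotype. At an unadjusted p under 0.05 edgeR gave 3 of the 6 by day in CD4 T cells and 0 in Tregs.

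A wider list of 49 genes known for Tregs and their differentiation was followed in the Tregs themselves. Of 34 tested, 2 rose and 0 fell from day 10 to day 17 by the edgeR test (5.88%, beside 15.4% of all genes called), and the median log2 fold change was 0.27 against -0.018 over all genes tested. Bach2, a repressor that keeps T cells from terminal differentiation, went from 111 ± 30.5 to 230 ± 62.3 CPM (log2 fold change 0.87, SE 0.23, edgeR adjusted p 0.0113), with no overlap between the 8 day 10 grafts (at most 159) and the 6 day 17 grafts (at least 167). Maf, a transcription factor that supports Il10 expression in T cells, went from 577 ± 114 to 844 ± 165 (0.48, SE 0.15, adjusted p 0.0306). The call of Maf was lost without Rnls mutant day 10 replicate 1, Rnls mutant day 17 replicate 1, WT day 10 replicate 2 or 3, or WT day 17 replicate 1 or 3 (adjusted p up to 0.1001).

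For genotype, edgeR and DESeq2 called 0 of the 34 in Tregs at either day, beside 0.0858% and 0.0429% of all genes called by edgeR, with 5 at day 10 and 3 at day 17 under an unadjusted p of 0.05 in edgeR. Socs1, an inhibitor of cytokine signalling, was the only 1 called for the difference of the genotype effect between days, at -2.04 (SE 0.47, adjusted p 0.0247), beside 1.03% of all genes. It averaged 220 CPM in WT day 10, 311 in Rnls mutant day 10, 304 in WT day 17 and 105 in Rnls mutant day 17 Tregs. The call was lost without WT day 17 replicate 3 (-1.58, adjusted p 0.206), Rnls mutant day 10 replicate 3 (adjusted p 0.0830) or Rnls mutant day 17 replicate 1 (adjusted p 0.0800) or 2 (adjusted p 0.0853), and with hashtag number as a block within each day (-1.91, adjusted p 0.119).

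In CD4 T cells the same list moved more, with 14 higher and 6 lower by day of 43 tested (46.5%, beside 36.6% of all genes) and a median of 0.17 against 0.014 over all genes. Those with the smallest p were all higher at day 17. They were Nrp1 (1.61), Bach2 (0.91), Socs3 (0.96), Ctla4 (1.15), Areg (1.61), Cd28 (0.59), Lef1 (1.01) and Stat5b (0.54), on the log2 scale. The cells lay mostly in different clusters at the 2 days, as given above. In cluster 8 alone, 0 of the 7 that could be fitted were called (edgeR adjusted p 0.219 and above, log2 fold changes from 0.0012 for Stat5b to 0.71 for Socs3). In cluster 7 alone, with 5 grafts at day 17, Lef1 (1.34), Nrp1 (1.50), Bach2 (1.22), Ctla4 (1.21) and Cd28 (0.63) were called. Socs3 (0.68) and Stat5b (0.10) were not. For genotype edgeR called 0 of the 43 at either day, beside 0.229% and 0.433% of all genes, with 3 at day 10 and 6 at day 17 under an unadjusted p of 0.05, and DESeq2 called 1 at each day.

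The genes whose pattern over the 10 cell types was most like that of Foxp3 were Tctex1d1 (Pearson's r 0.995 over the cell type means, on log2 values), Ky (0.987), Itgb8 (0.987), Pgpep1l (0.975) and Gm4858 (0.972), of 10414 genes compared. Itgb8, an integrin chain, was the most abundant of them at 92.8 CPM in Tregs, and the others lay between 12.6 and 18.7. The nearest patterns to Il10 were 2900093K20Rik (0.892), Zxdc (0.866), Bicral (0.859), Cited2 (0.848) and Xpo6 (0.824), which shared its highest means in Tregs and granulocytes. The 10 points of each correlation share libraries and depth, and the values are a description.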

How the data were processed

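CD45+ cells of 16 NIT-1 grafts were profiled with the 10x Genomics 3' v3.1 chemistry and cell hashing. The authors deposited a table of unnormalized UMI counts, with genes in rows and cells in columns, and annotations of each cell by library, hashtag, cluster and cell type. Per the labels, Cell Ranger and mm10 were used, and the remaining steps were not given in the sources used here. Filtering before deposit left cells of at least 1001 UMIs. Here, counts were summed per graft and annotated cell type (at least 10 cells) and fitted across the 4 groups with edgeR 4.0.16 in R 4.3.3 (TMM, filterByExpr, glmQLFit, glmQLFTest), with Benjamini-Hochberg adjustment over all genes of a cell type and a threshold of 0.05. DESeq2 1.42.0 was the other tool. Single values were compared with exact permutation tests in scipy 1.17.1. On data simulated from the Treg counts, the edgeR fit recovered 192 of 200 changed genes (11 false calls of 2331 genes). From the CD4 T cell counts it recovered 198 of 200 (6 of 7858). The median absolute log2 fold change estimated in these runs was 1.51 for Tregs and 1.53 for CD4 T cells. Recovery of smaller log2 fold changes, such as -0.37 for Tnfrsf4 by day in Tregs, was not tested. Recovery in the genotype comparisons was not tested either.

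The genes and lists were chosen with earlier results of these data known. The 7 genes and their 8 partners were always named, and of the 49 related genes those called, at most 8 per comparison by p. The doublet caller Scrublet (scanpy 1.11.5) marked 1 cell, and the sources used do not state whether doublets were removed before deposit. This call was not relied on, and the 1346 cells of the highest 6% of scores (31 Tregs) were removed as an alternative. Hosts carried grafts of both genotypes on opposite flanks, but the labels do not say which hashtags mark the same mouse, so genotype tests treated grafts as independent, with hashtag number as a block only as an alternative. P-values measure the spread between grafts, which may in part be technical, since the grafts of a group shared a library. Alternatives were other normalizations and filters, other minimums of cells, leaving out each graft, the replicate block, single clusters and each genotype alone. Gene positions and promoter windows were read from the reference annotation of GRCm38.p6 and RefSeq.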

Additional observations from a re-analysis of the deposited data

Results flagged for a closer look

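Of 76 groups of 4 grafts tested, 9 held a graft whose gap to the nearest other, divided by the range of the group, exceeded the 95% critical value of 0.829, and chance gives about 1 in 20. The values are in CPM (UMIs per 1000000 UMIs of the cell type), followed by the range of the other 3 grafts. In CD4 T cells of Rnls mutant day 10 replicate 1, Il2ra was low at 133 (223 to 231) and Ikzf2 was high at 154 (46.5 to 50.9). Ikzf2 was also high in CD4 T cells of WT day 17 replicate 4 at 165 (45.4 to 48.0), in CD8 T cells of WT day 10 replicate 1 at 146 (35.1 to 50.1) and in CD8 T cells of WT day 17 replicate 1 at 214 (0 to 20.0). In CD8 T cells of WT day 10 replicate 1, Tnfrsf4 was low at 26.5 (64.2 to 68.8), and in those of Rnls mutant day 10 replicate 4, Icos was high at 970 (839 to 858). Tnfrsf18 was at 0 in DCs of Rnls mutant day 17 replicate 2 (26.3 to 26.5 in the others). The share of Tregs among CD45+ cells was high in WT day 17 replicate 4 at 4.25% (1.60 to 1.89%).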

How the results depend on the processing

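Depth limited Il10 in every lymphoid type and all genes in the 2 grafts with few Tregs, and the single library of each group limits every comparison. Apart from leaving out grafts, 520 of the recomputed results kept direction and side of the threshold, 51 lost their call, 9 reversed and 29 counts moved. For results that did not hold, the cause was not tested unless given.

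Reversed were Icos (-0.014) and Tnfrsf4 (0.0028) by day in CD4 T cells within cluster 8 alone, Il10 by day in macrophages without cluster 13 (0.30), Foxp3 for genotype in Tregs at day 17 without TMM factors (-0.0059), with at least 20 cells per graft (-0.33) and with the replicate block (-0.046), Icos for genotype in Tregs at day 17 with at least 20 cells (0.15), and the Treg share at day 10 of CD4 T cells and Tregs (-3.24 percentage points) and of all T cells (-0.937). The minimum of 20 cells left 1 WT day 17 graft, assumed to vary like the other groups.

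Leaving out 1 graft at a time, the log2 fold change of Foxp3 for genotype in Tregs ranged from -0.23 to 0.040 (day 10) and from -0.20 to 0.44 (day 17), that of Il2ra at day 17 from -0.64 to 0.44, and the Treg share from -0.689 to 0.523 (day 10), from -0.909 to 0.118 (day 17) and from -0.600 to 0.131 over both days. Members called then ranged, in Tregs, from 0 to 1 for genotype, from 0 to 1 for the difference between days and from 2 to 3 by day, and by day from 0 to 3 in CD4 T cells, from 0 to 2 in CD8 T cells, from 0 to 1 in macrophages, from 1 to 2 in DCs, from 0 to 3 in NK cells and from 3 to 4 in all CD45+ cells. Related genes called by day ranged from 1 to 5 in Tregs and from 17 to 24 in CD4 T cells.

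Members called by other settings were 1 (Il2ra) for the difference between days in Tregs with at least 20 cells, then by day 1 without TMM factors and 5 without the filter in CD4 T cells, 0 and 4 in CD8 T cells, 0 and 3 in NK cells (0 without the highest doublet scores), and 0 with DESeq2 and 2 without the filter in macrophages. Without the filter genotype called 1 in CD4 T cells (Ikzf2) and 1 in CD8 T cells (Il2ra), where the difference between days also called 1. Over all genes, Treg genotype calls at day 10 went from 2 to 16 without the filter and to 11 with at least 20 cells, with 0 to 11 when leaving out grafts, and at day 17 from 1 to 4 without TMM factors or without the highest doublet scores, 15 without the filter and 32 with at least 20 cells, with up to 10 when leaving out grafts. Treg calls by day went from 358 to 232 with DESeq2. Genotype calls in CD4 T cells went at day 10 from 18 to 51 with DESeq2 and to 86 without the filter, and at day 17 from 34 to 124 without the filter.

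The replicate block, with hashtag number as a term shared by both days, changed no count of members called. Nor did a block of its own within each day for the genotype comparisons, chosen after seeing the data since the mice of the 2 days differ, under which Socs1 lost its call for the difference between days (adjusted p 0.119), Tnfrsf4 for genotype in Tregs at day 17, with 2 complete pairs, became -0.25, and genotype calls over all genes went from 1 to 3 in Tregs at day 17 and from 18 to 45 in CD4 T cells at day 10. Deviations of same-numbered WT and mutant grafts correlated at -0.0931 to 0.128 in Tregs (1 of 8 over 0.1), -0.0721 to 0.539 in CD4 T cells (5 of 8) and -0.610 to 0.482 in all CD45+ cells (4 of 8). WT and mutant grafts shared hosts, but neither the labels nor these correlations show which hashtags belong to the same mouse, so the genotype tests stayed unpaired.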
